A study of Rattus norvegicus with 16 samples.

Results

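The mRNA levels of 9 genes for potassium and chloride channels that have been linked to iodide transport were followed after silencing of *Pax8* in PCCl3 cells, a differentiated follicular cell line from rat thyroid. The genes were *Kcnq1*, *Kcne2*, *Kcne3* and *Kcnn4* for potassium channels, and *Clcn2*, *Clcn3*, *Clcn5*, *Clcn7* and *Clic4* for chloride channels and transporters. Members were the probes of the Agilent whole rat genome array whose RefSeq accession belongs to 1 of these symbols, which gave 9 probes, 1 per gene, among 41012 probes, of which 10768 could be named in this way. The potassium channel probes were A_44_P212703 (NM_032073) for *Kcnq1*, A_44_P414582 (NM_133603) for *Kcne2*, A_44_P353739 (NM_022235) for *Kcne3* and A_42_P602511 (NM_023021) for *Kcnn4*. The chloride channel probes were A_43_P11833 (NM_017137) for *Clcn2*, A_42_P637037 (NM_053363) for *Clcn3*, A_43_P11824 (NM_017106) for *Clcn5*, A_43_P12590 (NM_031568) for *Clcn7* and A_44_P105831 (NM_031818) for *Clic4*. All cells grew in the same hormone medium with 1 nM TSH. In the si*Pax8* condition they had been transfected with an siRNA against *Pax8* (10 ng/ml) and RNA was taken 48 h later. The siScramble condition received a scrambled siRNA at the same concentration. The third condition is wild type (wt) in the labels, whereas the methods list lipofectamine-treated cells for it, so whether these cells had seen the transfection reagent is not settled. Competitive hybridizations set si*Pax8* against wt on 8 arrays and si*Pax8* against siScramble on 8 arrays, that is 4 replicates of each comparison with both dye orientations. PCCl3 is a single established line, and the siRNA acts transiently, so each comparison describes 1 time point after transfection in this line. The study tested the silencing by western blot for Pax8 protein and chose 48 h from it. Whether the si*Pax8* samples of both comparisons were the same is not stated in the sources used here. The comparisons may therefore not be independent and are given side by side.

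Thyrocytes take up iodide through the sodium/iodide symporter *Slc5a5* at the basolateral membrane, driven by the sodium gradient, and release it at the apical membrane into the follicle lumen, where it is bound to thyroglobulin. Potassium channels let potassium leave the cell and keep the membrane potential negative. Among them, the pore protein *Kcnq1* and its small partner *Kcne2* form a channel that stays open at rest and is needed for normal iodide uptake in the mouse thyroid. Proteins of the CLC family conduct chloride at the plasma membrane or exchange chloride and protons in endosomes and lysosomes, through which thyroglobulin passes. The exchanger *Clcn5* has been linked to apical iodide movement.

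In each array and colour, 52.0% to 60.8% of spots exceeded background by the scanner software's own mark. Outlier marks were set on 112 to 215 spots an array, and on 0 spots of the 9 genes. The direction of every ratio was read from the dyes in the labels. The probe of *Pax8* itself had log2 ratios of si*Pax8* to wt of -0.84, -0.57, -0.59 and -0.26 in replicates 1 to 4. All 4 values were below 0, with a mean of -0.56 ± 0.24 (SD, n = 4, limma, adjusted p-value 0.000472, and 0.00562 without replicate 3). Relative to siScramble, the values were -0.58, -0.29, -0.12 and -0.01, with a mean of -0.25 ± 0.25 (SD, n = 4), which did not pass (adjusted p-value 0.143). The threshold used throughout was an adjusted p-value of 0.005, adjusted over all 41012 probes.

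7 of the 9 genes gave signal well above background. The spots of *Kcne2*, *Clcn2*, *Clcn3*, *Clcn5*, *Clcn7* and *Clic4* were well above background in all 32 channels, that is in both colours of the 16 arrays. *Kcnn4*, the calcium-activated potassium channel of intermediate conductance, was well above background in 25 of 32 channels, with a spot signal of 1.23 to 1.83 times the local background. The probe of *Kcnq1* was not well above background in any of the 32 channels, and its signal lay between 0.84 and 1.26 times the background, with a median of 1.04. The probe of *Kcne3*, another small partner of *Kcnq1*, was well above background in 2 of 32 channels. Both were of 1 array, si*Pax8* against siScramble in replicate 3, where its signal was 106 over a background of 51 in si*Pax8* and 50 over 23 in siScramble. Over its 32 channels the median ratio of signal to background was 1.05. For *Kcnq1* and *Kcne3* these arrays therefore give no level. Each gene has 1 probe, whose performance was not tested, so low expression is not shown either. The log2 ratios drawn for *Kcnq1* and *Kcne3* in the plots are ratios of background, not fold changes.

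**Figure D1:**
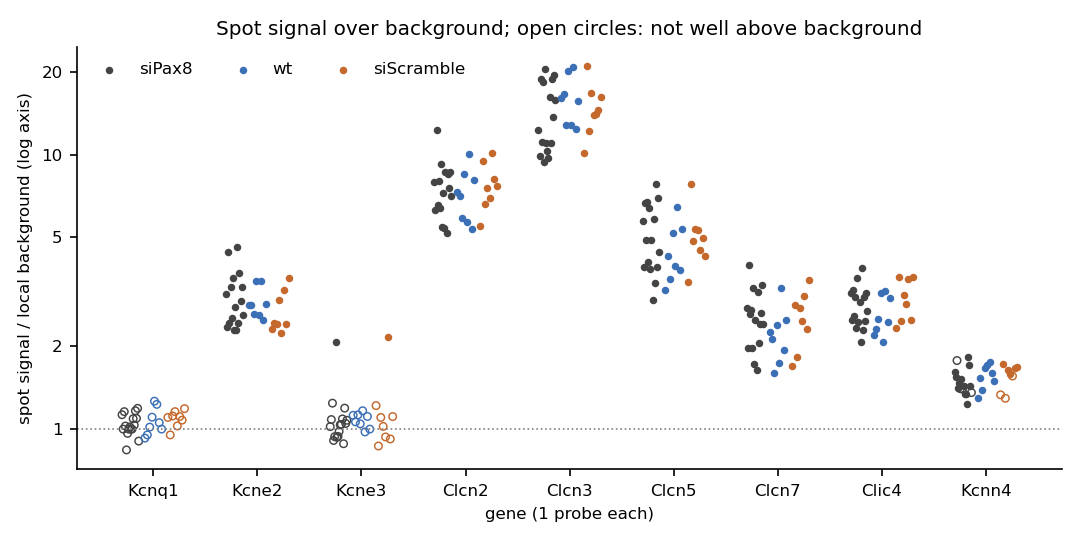
Spot signal divided by local background (log axis) for the 9 genes, 1 point per array and channel, in si*Pax8* (16 channels), wt (8) and siScramble (8) samples. Open circles are spots not well above background: the 32 points of *Kcnq1* and all but 2 of *Kcne3* are open and lie around 1, and *Kcnn4* has 25 filled points of 32.

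No member passed the threshold in either comparison. By limma, 0 of the 9 probes were called against wt, where 15.3% of all probes passed, and 0 of 9 against siScramble, where 2.11% passed. Among probes above background in at least 8 of the 16 channels of a comparison, 26.3% passed against wt and 3.26% against siScramble, compared with 0 of the 7 members of that kind in each. At an unadjusted p below 0.05, 1 of the 9 members was counted in each comparison. So were 13863 of all 41012 probes against wt and 8408 against siScramble. Over the 7 measured members, the log2 ratio had a median size of 0.05 against wt and 0.02 against siScramble, beside 0.10 and 0.06 for all probes above background. The 95% intervals of the mean log2 ratios lay between -0.33 and 0.19 for si*Pax8* over wt and between -0.16 and 0.25 for si*Pax8* over siScramble. These sizes and intervals hold for the processing used here (normexp, offset 50). With the processed intensities of Agilent's software *Kcne2* over siScramble was 0.34, above that range. Over wt *Clcn7* was then 0.24 and *Kcnn4* -0.25, while *Clcn2* stayed at -0.04. The median size over all probes against wt was 0.12 with those intensities, compared with 0.04.

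**Figure D2:**
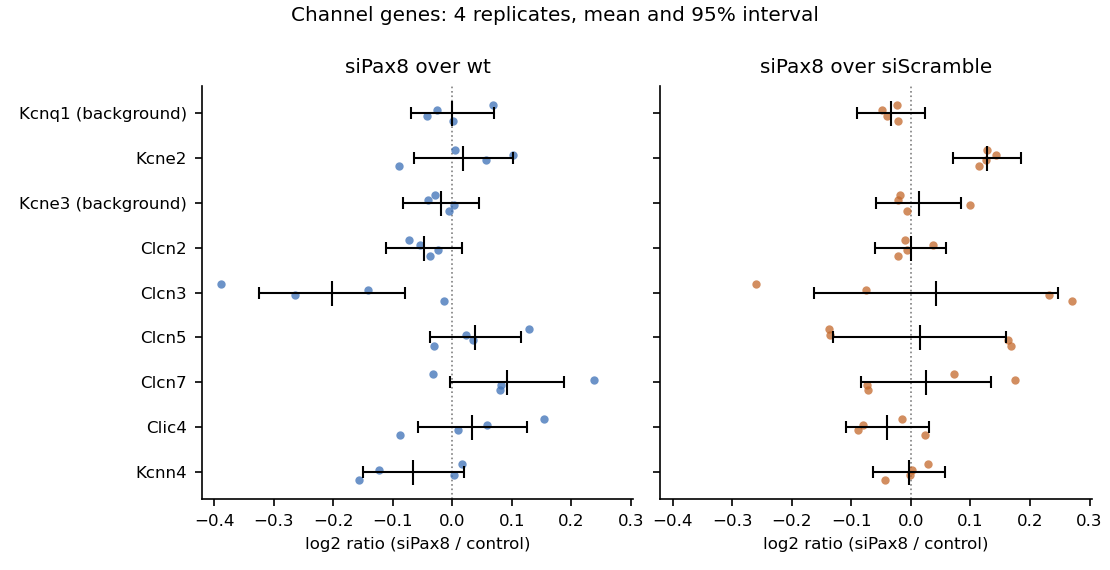
Log2 ratio of si*Pax8* to wt (left) and to siScramble (right) for the 9 genes. Points are the 4 replicates, each the mean of 2 dye-swapped arrays; the vertical bar is their mean and the whisker its 95% interval from limma. The interval leaves out 0 for *Clcn3* over wt, with all 4 points below 0, and for *Kcne2* over siScramble, with all 4 points above 0.

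Among the potassium channel genes, *Kcne2* had even ratios to siScramble and spread ones to wt. Relative to siScramble, its log2 ratios were 0.13, 0.14, 0.13 and 0.12 in replicates 1 to 4. All 4 were above 0, with a mean of 0.13 ± 0.01 (SD, n = 4), that is 109% of the siScramble level (95% interval 105% to 114%). Its adjusted p-value of 0.0203 missed the threshold of 0.005 and lay below 0.05, as that of 8.96% of all probes did. The mean was 0.11 with si*Pax8* in Cy5 and 0.15 with si*Pax8* in Cy3, and 0.04 to 0.20 within the 4 slides. With the processed intensities of Agilent's software it was 0.34, above that interval (adjusted p-value 0.0748). With single arrays and the slide as a block, where the dye-swapped arrays of a replicate count separately, the adjusted p-value was 0.00739. Without 1 replicate it was 0.0511 to 0.112. Relative to wt, the *Kcne2* ratios were 0.01, 0.10, 0.06 and -0.09. These values fell on both sides of 0 (mean 0.02 ± 0.08, SD, n = 4, adjusted p-value 0.820), with a 95% interval of -0.06 to 0.10. In normalised log2 intensity, *Kcne2* stood at 7.26 in si*Pax8* and 7.13 in siScramble samples on the arrays of that comparison, and at 7.30 in si*Pax8* and 7.28 in wt samples on the others.

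*Kcnn4* lets potassium out of the cell when calcium rises. Its log2 ratios of si*Pax8* to wt were 0.02, -0.12, 0.00 and -0.16. The values of replicates 2 and 4 were below 0 and the other two lay close to 0, and the mean was -0.07 ± 0.09 (SD, n = 4, adjusted p-value 0.278), or -0.25 with Agilent's processed intensities (adjusted p-value 0.328). Relative to siScramble they were 0.03, 0.00, -0.00 and -0.04, with a mean of -0.00 ± 0.03 and a 95% interval of -0.06 to 0.06 (adjusted p-value 0.969). On the siScramble arrays the gene was well above background on 5 of 8 arrays in each condition, and on the wt arrays on 7 of 8 in si*Pax8* and 8 of 8 in wt samples. For *Kcnq1*, the pore protein of the channel, the arrays hold no signal from which a ratio could be read, in si*Pax8*, wt or siScramble samples alike.

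Among the chloride transporters, *Clcn3*, an exchanger of chloride and protons in endosomes, had the member ratio farthest from 0. Relative to wt, its log2 ratios were -0.39, -0.14, -0.26 and -0.01 in replicates 1 to 4. All 4 values were below 0, replicate 4 barely so, and their mean was -0.20 ± 0.16 (SD, n = 4), that is 86.9% of the wt level (95% interval 79.8% to 94.7%). Its adjusted p-value was 0.0223, above the threshold of 0.005 and below 0.05, as for 26.2% of all probes. Within the 4 slides the mean ratio lay between -0.28 and -0.13. With single arrays and the slide as a block, where the dye-swapped arrays of a replicate again count separately, the adjusted p-value was 0.00738. It was 0.105 with both comparisons in 1 fit, and it ranged from 0.00753 to 0.117 when 1 replicate was left out. With Agilent's processed intensities the mean was -0.24 (adjusted p-value 0.236). The mean was -0.13 with si*Pax8* in Cy5 alone (adjusted p-value 0.116) and -0.27 with si*Pax8* in Cy3 alone (adjusted p-value 0.0806). Relative to siScramble the ratios were -0.26, -0.08, 0.23 and 0.27. Replicates 1 and 2 were below 0 and replicates 3 and 4 above it, so that the mean of 0.04 ± 0.25 (SD, n = 4, adjusted p-value 0.879) had a 95% interval of -0.16 to 0.25. Its normalised log2 intensity was 9.16 ± 0.15 in si*Pax8* and 9.36 ± 0.08 in wt samples (SD, n = 4), and on the other arrays 9.14 ± 0.16 in si*Pax8* samples, with an SD of 0.17 in siScramble samples.

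The replicates of *Clcn3* fell in the same order as those of *Pax8* in both comparisons: in each, replicate 1 had the lowest and replicate 4 the highest ratio of both genes. Against wt the order from low to high was replicates 1, 3, 2 and 4, and against siScramble 1, 2, 3 and 4. This order was looked at after the values had been seen, and the comparisons may share si*Pax8* samples. Of all probes, 4.57% had the replicate order of *Pax8* against wt, 6.76% against siScramble and 0.585% in both. *Clcn5* had it against siScramble alone, and the other members in neither comparison. With 4 replicates no correlation was computed.

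*Clcn5*, the endosomal exchanger needed for endocytosis in epithelia, had log2 ratios to wt of 0.13, 0.02, 0.04 and -0.03, with a mean of 0.04 ± 0.07 (SD, n = 4, adjusted p-value 0.520). Relative to siScramble its ratios were -0.14, -0.14, 0.16 and 0.17. As for *Clcn3*, replicates 1 and 2 lay below 0 and replicates 3 and 4 above, and the mean was 0.01 ± 0.17 (adjusted p-value 0.946) with a 95% interval of -0.13 to 0.16. *Clcn7*, which serves lysosomes together with its subunit *Ostm1*, had ratios to wt of -0.03, 0.24, 0.08 and 0.08. Replicate 1 was below 0 and replicate 2 the highest, with a mean of 0.09 ± 0.11 (adjusted p-value 0.170) and a 95% interval of -0.0047 to 0.19. With Agilent's processed intensities the mean was 0.24 (adjusted p-value 0.238). Relative to siScramble, *Clcn7* showed the reverse split, 0.07 and 0.17 in replicates 1 and 2 and -0.07 and -0.07 in replicates 3 and 4 (mean 0.02 ± 0.12, adjusted p-value 0.859). The probes of *Ostm1*, looked up for this reason, had means of 0.08 and 0.14 over wt and of 0.12 and 0.12 over siScramble, none past the threshold.

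*Clcn2*, a chloride channel of the plasma membrane that opens on hyperpolarization, had log2 ratios to wt of -0.07, -0.05, -0.02 and -0.04. All 4 were slightly below 0, with a mean of -0.05 ± 0.02 (SD, n = 4, adjusted p-value 0.302) and a 95% interval of -0.11 to 0.02. Relative to siScramble they were -0.01, 0.04, -0.01 and -0.02, around 0 (mean -0.00 ± 0.03, adjusted p-value 0.998, 95% interval -0.06 to 0.06). *Clic4*, a protein of the chloride intracellular channel family with soluble and membrane forms, had ratios to wt of 0.15, 0.06, 0.01 and -0.09 (mean 0.03 ± 0.10, adjusted p-value 0.670). Its ratios to siScramble were -0.02, -0.08, -0.09 and 0.02 (mean -0.04 ± 0.05, adjusted p-value 0.565). Both sets of *Clic4* values included 0 within their 95% intervals, -0.06 to 0.12 and -0.11 to 0.03.

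A ratio of 1 sign in all 4 replicates was seen for 2 of the 9 probes against wt, *Clcn2* and *Clcn3*, where 38.8% of all probes had one. Against siScramble it was seen for 2 probes, *Kcne2* and *Kcnq1*, the latter at background level, where 26.9% of all probes had one. The median SD over the 4 replicates was 0.08 for the members and 0.06 for all probes against wt, and 0.05 and 0.06 against siScramble.

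The dye orientation moved several members by as much as their ratios. For *Clcn2* the 4 arrays with si*Pax8* in Cy5 and the 4 with si*Pax8* in Cy3 did not overlap in either comparison. Their means were 0.06 and -0.16 against wt, and 0.08 and -0.08 against siScramble. For *Clcn5* the orientations did not overlap against wt, where the mean was -0.10 with si*Pax8* in Cy5 and 0.18 with si*Pax8* in Cy3. *Clcn7* against siScramble had means of -0.10 and 0.15, with a small overlap. The sign of the mean differed between the orientations for 5 of 9 probes in each comparison. Against wt these included *Kcnq1* and *Kcne3*, whose ratios are ratios of background. The share of all probes with such a difference in sign, or with orientations that did not overlap, was not computed. Each replicate value is the mean of both orientations, in which an effect of the dye on a probe cancels. *Kcne2* and *Clcn3* kept 1 sign in both orientations of the comparison in which they lay nearest to the threshold.

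**Figure D3:**
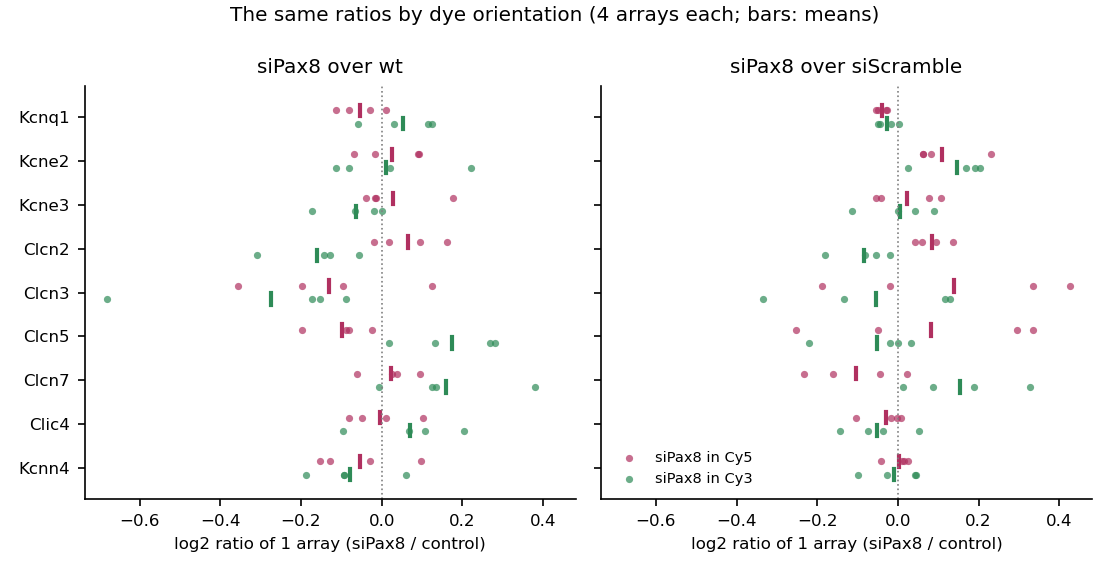
Log2 ratios of single arrays for the 9 genes, si*Pax8* over wt (left) and over siScramble (right), with si*Pax8* labelled in Cy5 (red) or Cy3 (green); each colour has 4 arrays and the bar is their mean. The colours are fully apart for *Clcn2* in both panels and for *Clcn5* in the left panel, on opposite sides of 0 on average.

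The difference between the comparisons, that is the log2 ratio over wt minus that over siScramble, was tested with limma for each probe. It passed for 0 of the 9 members, where 3.44% of all probes passed. At an unadjusted p below 0.05, 1 of the 9 members was counted, beside 9060 of all 41012 probes. For *Clcn3* the difference was -0.24 (adjusted p-value 0.258), with a 95% interval of -0.50 to 0.01. For *Kcne2* it was -0.11 (adjusted p-value 0.161), with an interval of -0.21 to -0.01. Over the other members it ranged from -0.06 for *Kcnn4* to 0.07 for *Clic4*.

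**Figure D4:**
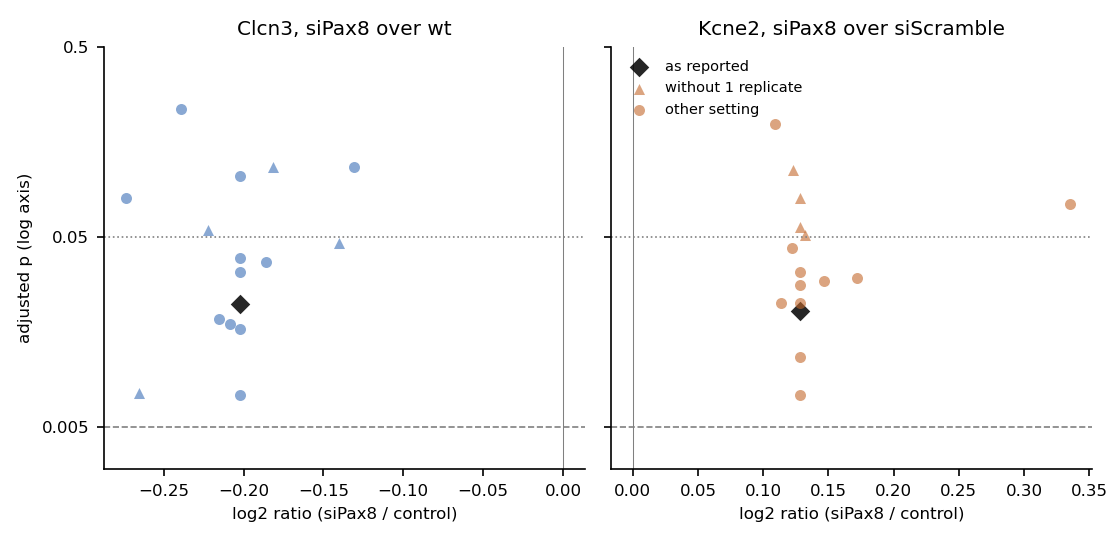
Adjusted p (log axis) against log2 ratio under each setting for *Clcn3*, si*Pax8* over wt (left), and *Kcne2*, si*Pax8* over siScramble (right). The dotted line is 0.05 and the dashed line the threshold of 0.005. Every point lies above the dashed line and on 1 side of 0, and the points fall on both sides of the dotted line.

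The other potassium channels on the array gave the members a frame. Of 58 probes for 49 other potassium channel genes, 4 had higher and 5 had lower levels in si*Pax8* compared with wt cells (limma, 15.5%). This share was near that of all probes, 15.3%. Against siScramble 0 passed, where 2.11% of all probes did. There, 7 of the 58 had an unadjusted p below 0.05, beside 8408 of all 41012 probes. The median log2 ratio of the 58 was -0.00 over wt and 0.01 over siScramble, as over all probes (-0.00 and -0.00). Of the 58, 28 were above background on no array of the wt comparison. *Kcnk1*, a channel with paired pore domains, was lower than in wt cells (-1.02, -0.57, -0.76 and -0.97, mean -0.83 ± 0.21, adjusted p-value 2.49e-05). Against siScramble its mean was -0.36 ± 0.17 (adjusted p-value 0.0128). *Kcnj12*, an inward rectifier, was higher than in wt cells by 0.77 ± 0.11 (adjusted p-value 2.87e-06), and had a mean of 0.05 against siScramble. The rectifiers *Kcnj16* (0.37) and *Kcnj14* (0.30) and 1 of 2 probes of the voltage-gated channel *Kcnd3* (0.15) were also higher than in wt cells. *Kcnj15* (-0.29), *Kcnmb4* (-0.26), which is a subunit of a calcium-activated channel other than *Kcnn4*, and *Kcnk10* (-0.24) were lower. With the processed intensities of Agilent's software 2 of the 58 probes passed, and of the 8 named genes *Kcnj12* alone kept its call, while the adjusted p-values of the other 7 were 0.00504 to 0.0427. The ratio of the *Kcnd3* probe was then 1.15, and that of *Kcnj15* -0.52. The calls of *Kcnk10* and *Kcnd3* were lost without replicate 2, 3 or 4 as well (adjusted p-values 0.00839 to 0.0257). That of *Kcnd3* was also lost among probes above background (adjusted p-value 0.00618) and in each dye orientation alone (0.0350 and 0.0141), and those of *Kcnk10*, *Kcnj14* and *Kcnj15* with si*Pax8* in Cy3 alone (0.00718 to 0.0465).

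Of 25 probes for 18 other chloride channel genes, 3 rose and 3 fell in si*Pax8* relative to wt cells (limma, 24.0%). Against siScramble 0 passed, and 9 of the 25 had an unadjusted p below 0.05, beside 8408 of all 41012 probes. The median log2 ratio of the 25 was 0.02 over wt and 0.04 over siScramble. Against wt, both probes of *Clcc1* (-0.23 and -0.21) and 1 of 2 of *Lrrc8c* (-0.32), a subunit of volume-regulated anion channels, were lower. Both probes of *Clic1* (0.28 and 0.20), a relative of *Clic4*, and 1 of 3 of *Clcn4* (0.31), a relative of *Clcn3* and *Clcn5*, were higher than in wt cells. Without replicate 1, 2, 3 or 4 the number of called probes against wt was 8, 2, 1 and 3, and it was 0 with the processed intensities of Agilent's software, where the *Clcn4* probe had a ratio of 0.61. In single arrays with the replicate as a block, 1 of the 2 *Clcc1* probes (adjusted p-value 0.0176) and 1 of the 2 *Clic1* probes (adjusted p-value 0.0115) lost their calls. The dye orientations were unequal: with si*Pax8* in Cy3 alone the *Clcc1* probes stood at -0.06 and -0.08, and with si*Pax8* in Cy5 alone the *Clic1* probes stood at 0.03 and 0.11, none of them past the threshold.

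**Figure D5:**
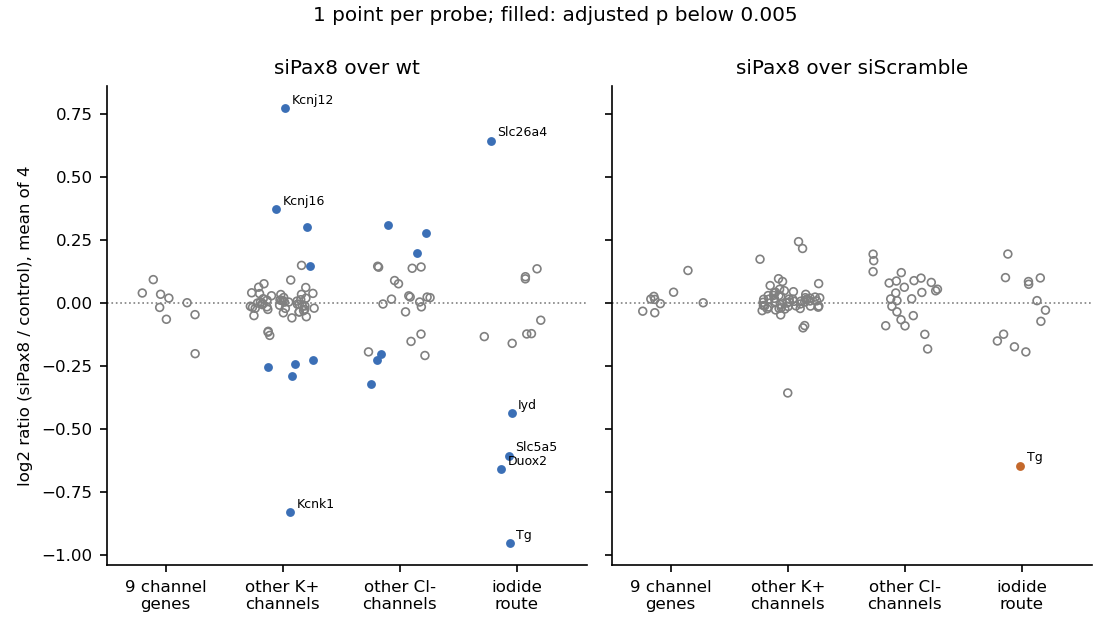
Mean log2 ratio of si*Pax8* to wt (left) and to siScramble (right), 1 point per probe, for the 9 channel genes, the other potassium channels (58 probes), the other chloride channels (25) and the iodide route (13). Filled points passed the adjusted p-value of 0.005. The 9 genes have no filled point in either panel and lie between -0.20 and 0.13.

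Some genes listed for the route that carries iodide and binds it to thyroglobulin had ratios to wt larger in size than any member. These were *Tg*, *Slc5a5*, *Duox2*, *Iyd* and *Slc26a4*, and not the list as a whole. Of 13 probes for 11 genes of this route, 1 rose and 4 fell in si*Pax8* relative to wt cells (38.5%), and 1 was lower than in siScramble cells (7.69%). The median log2 ratio of the 13 was -0.12 over wt and -0.03 over siScramble. The list also holds genes with small ratios to wt, such as *Slc12a2* (-0.12 and -0.12) and *Atp1b1* (-0.07). *Tg*, the thyroglobulin gene, was lower than in both controls, by -0.96 ± 0.17 against wt (adjusted p-value 4.62e-06) and -0.65 ± 0.12 against siScramble (adjusted p-value 0.000528). *Slc5a5* had log2 ratios to wt of -0.59, -0.69, -0.53 and -0.61 (mean -0.61 ± 0.07, adjusted p-value 3.09e-06) and to siScramble of 0.15, 0.13, -0.05 and 0.05 (mean 0.07 ± 0.09, adjusted p-value 0.364). *Duox2*, a source of hydrogen peroxide, had means of -0.66 and -0.13 and *Iyd*, which recovers iodide, of -0.44 and -0.20, past the threshold against wt alone. The anion exchanger *Slc26a4* was higher than in wt cells (0.64 ± 0.06) with a mean of -0.18 against siScramble. The call of *Tg* against siScramble was lost without replicate 2 (adjusted p-value 0.00827), and that of *Duox2* against wt with Agilent's processed intensities (adjusted p-value 0.00683).

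Of 8 probes for 7 thyroid follicular markers, 8 were above background in at least 8 of 16 channels, and 7 fell relative to wt cells (median log2 ratio -0.55) and 2 relative to siScramble cells (median -0.17). Of all probes above background, 26.3% and 3.26% passed. The markers include *Pax8*, the target of the siRNA, so its fall is no separate result. They also include *Tg* and *Slc5a5*, whose ratios are given above. Of the markers of other cells, the probes of *Dcn*, *Lum*, *Pecam1*, *Itgam* and *Scg2* were above background on no array. One probe each of *Calca* and *Col1a2* was above background on all arrays while the other was so on at most 1 array of a condition, 1 of 2 *Chga* probes was above it on 1 to 5 of 8 arrays, and *Cd68* was above background on all arrays and higher than in wt cells by 0.30 (adjusted p-value 0.000797). Genes of the interferon response moved with the comparison to wt: 20 of 23 probes were higher, with a median log2 ratio of 1.06, where 15.3% of all probes passed. Relative to siScramble 2 of 23 were higher, with a median of 0.23, where 2.11% of all probes passed. The part of the interferon genes in the ratios of the channel genes was not tested.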

How the data were processed

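Total RNA from PCCl3 cells was hybridized by the study to 16 Agilent 2-colour arrays, on 4 slides that each held 2 arrays of each comparison. The authors deposited scanner files with fluorescence intensities (mean spot signal and median local background per dye), the processed intensities of Agilent's software, and a table of normalized ratios, taken as log2. Per the file headers, slides were scanned at 5 µm and read with Feature Extraction 10.1.1.1. The base of that table is not given in the sources used here, and it ran against the log2 ratios of this work (correlations of -0.999 to -0.992), which makes it control over si*Pax8*. Column medians lay near 0.

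Mean signals and backgrounds were corrected with normexp (offset 50), loess normalized within and quantile normalized between arrays, as named in the study's methods apart from the background step. Control spots (1639 of 45018) were left out. For each replicate, the log2 ratios (si*Pax8* over control) of its dye-swapped arrays were averaged, which the methods name as pairs and whose deviations correlated at 0.12 to 0.47 against wt and 0.33 to 0.58 against siScramble (for replicate 2 against wt, 0.12 compared with 0.20 for another replicate), and tested with limma 3.58.1 in R 4.3.3, with Benjamini-Hochberg adjustment over 41012 probes. The test was checked on simulated data with the replicate spread of each comparison. It recovered 0% of log2 changes of 0.2 in either comparison. Of changes of 0.5 it recovered 61.2% against wt and 70.1% against siScramble. Of changes of 1 it recovered 90.9% and 95.5%, and 0 unchanged probes were called. Only 66 or 67 simulated probes carried each change, whereas 6260 probes passed against wt, so the adjustment was stricter in the simulation. In the data, a *Clic1* probe at 0.20 and a *Clcc1* probe at -0.21 passed against wt. The simulation therefore cannot decide whether changes of the size of the member ratios would be missed. The study calls the replicates biological, and whether each was a transfection of its own is not stated. Above background means Agilent's own mark per spot. The number of arrays limits the precision. The array was designed on rn4 and the gene names came from RefSeq tables of another build, so no coordinates are given.

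Alternatives were Agilent's processed intensities, a normexp offset of 16, loess alone, the authors' table, each dye orientation alone, single arrays with the replicate as a block and with a dye term, the slide as a block, both comparisons in 1 fit, a filter on dim probes, each replicate left out, and a threshold of 0.05. The slide block was fitted to single arrays, so that the dye-swapped arrays of a replicate counted separately in it. The 9 genes and the gene lists were chosen with earlier results of these data known. Other genes were named if past the threshold in both comparisons with the same direction and then by the mean size of their log2 ratios, up to 8 per list, with *Slc5a5* and *Slc26a4* always. Some listed genes are not reported here. *Ostm1* and the markers of other cells were named after their values had been seen. Genes nearest in pattern were to be named for members past the threshold, of which there were 0.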

Additional observations from a re-analysis of the deposited data

Results flagged for a closer look

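Among the 66 sets of 4 replicates examined, 3 had 1 value far from the other three by Dixon's criterion, and chance gives about 1 in 20. *Kcne3* was the only member among them: its log2 ratio to siScramble was 0.10 in replicate 3, where its probe was above background on 1 array, and a ratio of background in the other three, so it is no fold change. *Kcnd3* had a low value of 0.13 (si*Pax8* over wt, probe A_44_P1052794) and *Kcnj14* a high value of 0.37 (si*Pax8* over wt).

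No member passed the test of the difference between the comparisons. Of the 33 named probes tested for the difference of the log2 ratio over wt minus that over siScramble, 6 passed. These were *Slc26a4* (0.82, adjusted p-value 3.77e-05), *Kcnj12* (0.72, adjusted p-value 7.19e-05), *Slc5a5* (-0.68, adjusted p-value 2.64e-05), *Duox2* (-0.54, adjusted p-value 0.00263), *Kcnj14* (0.30, adjusted p-value 0.00289) and *Kcnj15* (-0.30, adjusted p-value 0.000941).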

How the results depend on the processing

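No member passed an adjusted p-value of 0.005 under any alternative. At a threshold of 0.05, 1 member passed against wt (*Clcn3*) and 1 against siScramble (*Kcne2*), 0 differed between the comparisons, and the numbers of probes past it were 4 for the other potassium channels against siScramble, 14 and 2 for the other chloride channels and 8 and 3 for the iodide route against wt and siScramble, and 9 for the interferon genes against siScramble. Of all probes, 26.2% passed 0.05 against wt and 8.96% against siScramble. Of the 322 alternative values of the 7 measured members, 27 had the other sign, none of them past the threshold, and 0 of 352 for the other named probes. With si*Pax8* in Cy5 alone the log2 ratio was 0.064 for *Clcn2*, -0.098 for *Clcn5* and -0.0042 for *Clic4* over wt, and 0.084 for *Clcn2*, -0.10 for *Clcn7* and 0.0022 for *Kcnn4* over siScramble, and the difference between the comparisons was -0.18 for *Clcn5*. With si*Pax8* in Cy3 alone, the ratio over siScramble was -0.055 for *Clcn3* and -0.053 for *Clcn5*. The ratio over siScramble was 0.00033 for *Clcn2* and -0.032 for *Clcn5* with Agilent's processed intensities, 0.00015 for *Clcn2* with an offset of 16, and 0.030 for *Clcn2* and 0.0074 for *Kcnn4* with loess alone. When 1 replicate was left out, the ratio over wt ranged from -0.0097 to 0.054 for *Kcne2* and from -0.0069 to 0.074 for *Clic4*. Over siScramble the ranges were -0.013 to 0.0070 for *Clcn2*, -0.035 to 0.14 for *Clcn3*, -0.037 to 0.065 for *Clcn5*, -0.025 to 0.058 for *Clcn7* and -0.014 to 0.0098 for *Kcnn4*, and the difference ranged from -0.056 to 0.098 for *Clcn5*.

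With Agilent's processed intensities, 2 probes of the other potassium channels and 0 of the other chloride channels passed against wt, and against siScramble 0 of the iodide route and 0 of the interferon genes. Leaving out 1 replicate gave 1 to 8 of the other chloride channels against wt, 0 to 1 of the iodide route against siScramble, and 1 to 2 of the interferon genes against siScramble. Over all probes, 6260 passed against wt, compared with 1305 with Agilent's intensities, 3492 with si*Pax8* in Cy3 alone and 3375 to 6982 without 1 replicate (the lowest without replicate 3). Against siScramble 867 passed, compared with 11 with Agilent's intensities, 215 and 3585 with si*Pax8* in Cy5 and Cy3 alone, 1704 for single arrays with the replicate block and 2196 with a dye term as well, 2431 with the slide block, 1752 in 1 fit, and 119 to 412 without 1 replicate (the lowest without replicate 2). The share of higher calls there was 57.6%, and 70.0% with loess alone. For the difference, 1409 passed, compared with 317 with Agilent's intensities, 787 and 597 with si*Pax8* in Cy5 and Cy3 alone, and 368 to 1063 without 1 replicate. The replicate numbers were not shown to pair the comparisons, since deviations of same-numbered replicates correlated at 0.40, 0.18, 0.04 and 0.57. With the replicate block 2308 probes passed and the adjusted p-value of the difference for *Clcn3* was 0.0314, and 0 members passed. The naming of probes through a gene name column was not run, since none was used here. The cause of these changes was not tested. The number of arrays, and signals near background for *Kcnq1*, *Kcne3* and *Kcnn4*, limit what could be detected.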
